A study of Saccharomyces cerevisiae with 6 samples.

Results

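The deletion of SSY1 was compared with wild type in Saccharomyces cerevisiae (budding yeast) on the 2 arrays that hybridised both strains together, out of 6 arrays in the study, and 5711 named genes were described on them. The arrays were chosen by their titles alone, as those that name s288c wt and ssy1KO. The study set 3 strains against each other, all placed in the S288C laboratory background by its design text: s288c wt, the ssy1KO strain, whose name marks a knockout of SSY1, and the ssy1T9 strain, whose name marks another allele and which the labels describe no further. Each pair of strains shared 2 arrays with the dyes exchanged, and the series title asks how a natural regulatory variant alters the yeast transcriptome. On array 1 the wt RNA carried Cy5 and the ssy1KO RNA Cy3, and on array 2 the dyes were exchanged. Total RNA was labelled with a dendrimer system in which dye-bearing DNA structures bind tagged cDNA. How the deletion was made, the marker used, the number of clones, the mating type, the growth medium and the cultures behind each array were not given in the sources used here. Since no label says that the arrays came from separate cultures or extracts, the p-values below speak only for the spread among these hybridisations, part or all of which may be technical.

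SSY1 encodes a membrane protein related to amino acid permeases that does not transport but senses amino acids outside the cell. Together with Ptr3 and the protease Ssy5 it forms the SPS sensor, which on binding amino acids cuts the latent transcription factors Stp1 and Stp2 so that they can enter the nucleus and switch on permease genes. Cells without the sensor take up several amino acids poorly, and are known to raise genes that are otherwise held down when good nitrogen sources are at hand.

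Every value is a log2 ratio of ssy1KO over wt after each array was centred on its median, so 0 is the typical gene and 1 a 2-fold higher level. The ratio's direction was not stated in the sources used here and was taken as the sign in which SSY1 is lower in ssy1KO on all 4 arrays holding that strain. It is therefore a likely direction, and base 2 is an assumption on which each fold rests. The mean of both arrays was tested with limma, whose estimate of error came from all 6 arrays, and a gene with an adjusted p under 0.05 is called higher or lower. The median standard error was 0.0937, so that a 95% confidence interval reached 0.201 above and below a gene's mean, or 1.15-fold.

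In ssy1KO, 942 genes or 16.5% of those measured were called, 579 higher (10.1%) and 363 lower (6.36%). Most differences were small: 702 of the called genes differed by less than 1.5-fold, and the median size was 0.41. From these 2 arrays alone, with no dye term and 1 residual degree of freedom, 152 genes (2.66%) were called, 108 higher (1.89%) and 44 lower (0.77%), and 229 (4.01%) passed a test against a 1.2-fold change. With array 1 left out 585 were higher (10.2%) and 253 lower (4.43%), and with array 2 left out 417 (7.3%) were called, 232 higher (4.06%) and 185 lower (3.24%). When the arrays were left uncentred the typical gene moved to 0.12, and 973 genes were called higher against 135 lower. Counts for gene groups are read against 10.1% higher and 6.36% lower, and counts without an array against the shares given for it. Without either array of ssy1T9 and wt, which bear on the estimate of spread, 283 genes were called in all. Among groups with at least 3 calls in a direction, the following counts then moved by over 1.5 times. Rises fell to 1 aromatic, 3 lysine, 3 other permease, 4 autophagy, 3 vacuolar, 2 trehalose and 1 respiratory gene, and to 0 in the redox, ergosterol and hexose groups. Falls went to 2 cytosolic ribosomal protein, 1 ribosome assembly, 2 purine, 3 pyrimidine, 2 iron, 1 cell wall and 1 respiratory gene. The set that differed at least 2-fold held 78 genes, 1.37% of all, with 52 higher and 26 lower. All 78 had one sign on both arrays, and no gene reached 2-fold on average without being called. At 4-fold or more there were 18 genes higher and 6 lower, which were mainly nitrogen, sulphur and leucine genes on the one side and permease genes with CHA1 on the other. The plot of both arrays against each other shows these extremes along the diagonal, while most other genes form a cloud around 0. The arrays gave, over genes and not over replicates, Pearson's r of 0.546 and Spearman's rho of 0.277, and across the 78 genes the Pearson value was 0.981. As these genes were picked with both arrays, the last value is a description only.

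**Figure D1:**
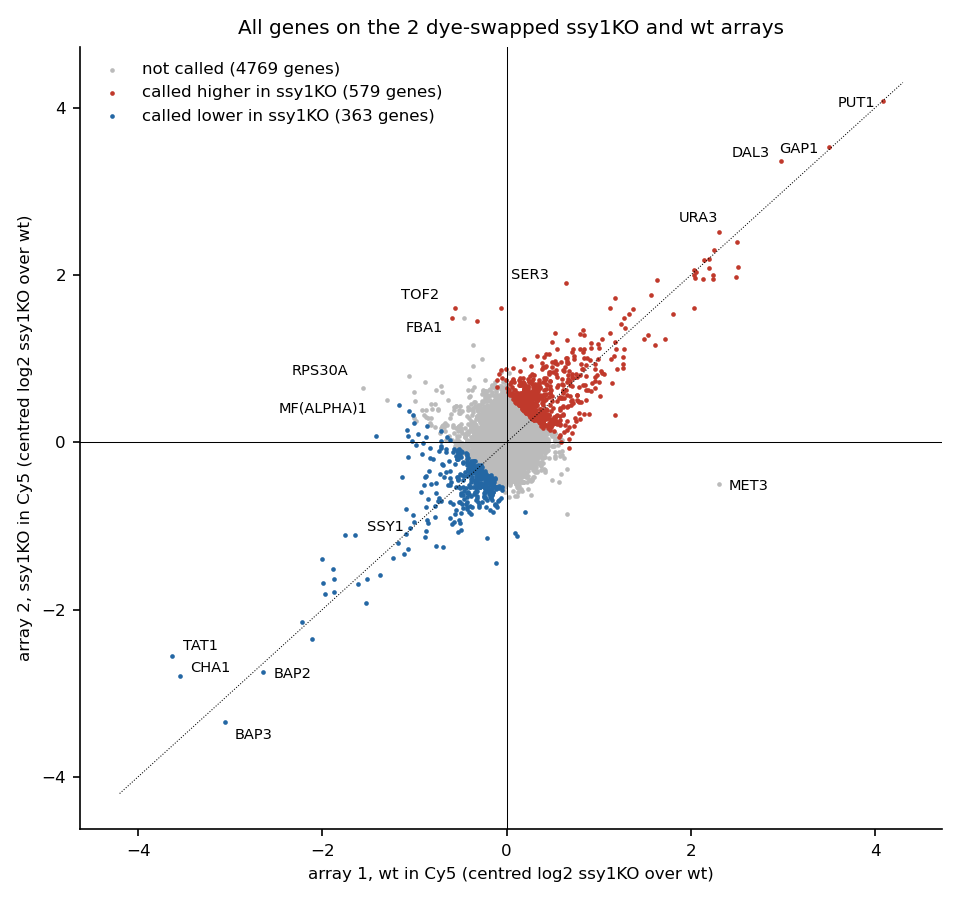
Each point is 1 of 5711 genes, placed by its centred log2 ratio of ssy1KO over wt on array 1 (wt in Cy5, horizontal) and array 2 (ssy1KO in Cy5, vertical), with called genes coloured and the dotted line marking equal values. PUT1, GAP1 and DAL3 lie at the upper right end and BAP3, TAT1 and CHA1 at the lower left, while MET3 (2.30 and -0.50) and TOF2 (-0.56 and 1.61) lie far off the line.

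The sensor gene itself read -1.65 on array 1 and -1.11 on array 2, a mean of -1.38 (SE 0.104, n = 2 arrays) or 2.60-fold lower, with an adjusted p of 3.06e-07 in the limma fit. Its signal did not vanish, and the sources used here do not place its probe inside or outside the removed stretch. Because SSY1 set the direction of the ratio, its fall is no separate check of the labels. Among the 12 measured genes of the sensor pathway, 1 other gene was called: STP2, for one of the latent factors, which read 0.67 and 0.95 and was 1.75-fold higher (adjusted p = 4.09e-05). The transcript of its partner factor STP1 read 0.11 and 0.30 and was not called, nor was that of PTR3 at 0.47 and 0.13 or SSY5 at -0.16 and -0.19. The transcript of DAL81, a co-activator at permease promoters, read 0.35 and 0.11. ASI1, ASI2 and ASI3, for inner nuclear membrane proteins that keep uncut Stp factors in check, had means of 0.09, 0.14 and 0.25, and none was called. The casein kinase genes YCK1 and YCK2 and the ubiquitin ligase subunit gene GRR1, which act in the sensor's signalling, had means of -0.09, -0.12 and -0.07, also not called. Without centring, 4 of the 12 were called higher.

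All 9 measured permease genes that the sensor controls were called lower, where 6.36% of all genes were, and their median was -2.19 against 0 for all genes. The list was set with earlier results of these data known, so this count is a description and no test. The branched-chain amino acid permease gene BAP3 read -3.06 and -3.35 and was 9.22-fold lower (adjusted p = 1.22e-11). Its relative BAP2 read -2.64 and -2.75, or 6.48-fold lower. TAT1, for a permease of tyrosine and other amino acids, read -3.63 and -2.56, or 8.54-fold lower. These were among the deepest falls of the whole array, although TAT1's arrays lay more than 1 log2 unit apart. GNP1, the high-affinity glutamine permease gene, read -2.11 and -2.35, and PTR2, the gene of the di- and tripeptide transporter, -2.22 and -2.15. TAT2, the tryptophan permease gene, read -1.97 and -1.82, and MUP1, the high-affinity methionine permease gene, -1.88 and -1.52. DIP5, for dicarboxylic amino acid uptake, read -1.61 and -1.69. The smallest fall was in AGP1, a broad-range permease gene, at -0.90 and -0.51, a mean of -0.71 or 1.63-fold. Apart from AGP1, each of these genes fell at least 2-fold, and all 9 were called without either of the ssy1KO and wt arrays. From those 2 arrays alone, 8 of the 9 were called.

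Other amino acid permease genes did not follow this pattern. Of 16 measured, 5 were higher and 2 lower, with a median of 0.12, and without array 2 the counts were 3 and 0. GAP1, the general amino acid permease gene, read 3.50 and 3.53 and was 11.4-fold higher (SE 0.0924, adjusted p = 6.09e-12), the second largest rise of all genes. The arginine permease gene CAN1 read 0.96 and 0.78, the S-adenosylmethionine permease gene SAM3 0.49 and 0.96, and the low-affinity methionine permease gene MUP3 0.27 and 0.70. The basic amino acid transporter gene ALP1 was lower at -0.51 and -0.55. Thus the high-affinity methionine permease gene was lower while its low-affinity relative was higher, each called on its own, and their difference was not tested. The sum of ssy1T9 over wt and ssy1KO over ssy1T9, from the 4 other arrays, gives a second estimate of the same difference. By it MUP3 was at 0.22 and ALP1 at -0.14, neither called, while GAP1, CAN1, SAM3 and MUP1 were called. From the 2 ssy1KO and wt arrays alone, 2 of the 16 genes were higher and 0 lower.

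Genes for peptide transport and its control were lower in 4 of 6 cases, with a median of -0.83. Beside PTR2, the oligopeptide transporter gene OPT1 read -1.87 and -1.79, or 3.56-fold lower, and its relative OPT2 -0.86 and -0.93. CUP9, the gene of the repressor that holds PTR2 down, was itself lower at -0.78 and -0.76. Among other transporters, AQR1, for a plasma membrane exporter that sheds excess amino acids, read -1.11 and -1.34, and FUI1, for uridine uptake, -1.53 and -1.92. The peptide group also held 4 falls when either of the ssy1KO and wt arrays was left out.

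The largest rise was in PUT1, for proline oxidase, the first enzyme of proline breakdown. It read 4.09 and 4.08, a mean of 4.09 (SE 0.0889) or 17.0-fold higher, with an adjusted p of 9.09e-13. DAL3, for an enzyme of allantoin breakdown, read 2.98 and 3.36, a mean of 3.17. Of 23 measured genes under nitrogen catabolite repression, which is the shut-off of genes for poor nitrogen sources, 11 were higher and 1 was lower, and 7 of the rises were at least 2-fold. DUR3, the urea transporter gene, read 2.03 and 2.06, CAR2, for ornithine aminotransferase in arginine breakdown, 2.04 and 1.96, and MEP1, an ammonium permease gene, 1.57 and 1.76. DCG1, a gene sensitive to the same repression, read 1.63 and 1.94. The rise was not shared by the whole group, whose median was 0.26: 11 members were not called, among them the allantoate permease gene DAL5 at -0.22 and -0.03, and OPT2 was lower.

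Regulators of this response were higher too, in 6 of 9 cases with none lower and a median of 0.50. GAT1, for a GATA activator of nitrogen genes, read 2.25 and 2.30, or 4.84-fold higher. DAL80, for a GATA repressor of the same genes, read 2.51 and 2.10, or 4.94-fold higher. Both the activator and the repressor gene were thus among the 18 genes that were at least 4-fold higher. UGA3, for the activator of 4-aminobutyrate use, read 1.2 and 0.88, the kinase gene NPR1, whose product stabilises permeases, 0.70 and 0.49, and the activator gene GLN3 0.58 and 0.41. GDH1, for the NADP-dependent glutamate dehydrogenase that fixes ammonium, read 2.49 and 1.97, or 4.69-fold higher. GLT1, for glutamate synthase, read 0.43 and 0.77. The other 6 measured genes of glutamate, proline and asparagine synthesis were not called, with PRO1 at 0.05 and -0.42 and PRO2 at -0.08 and -0.29.

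**Figure D2:**
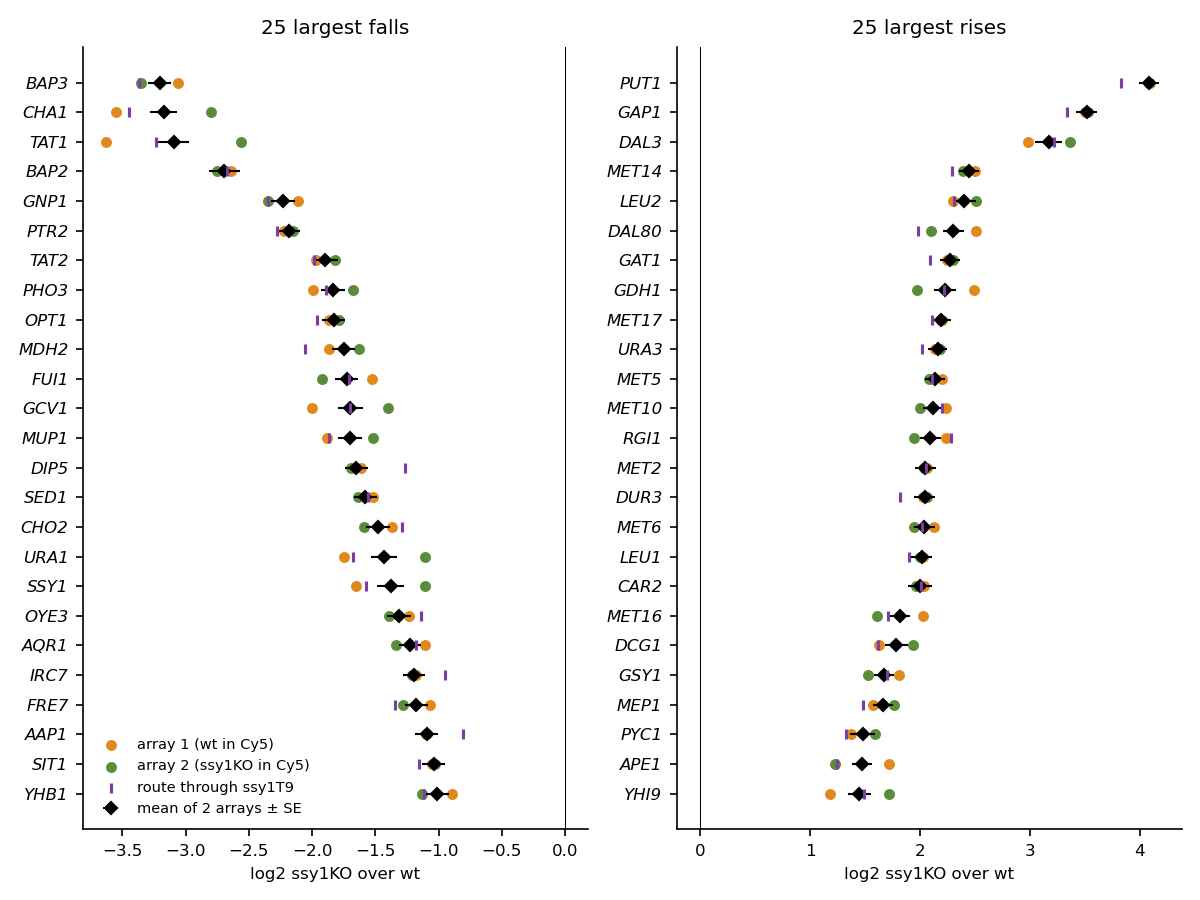
The 25 largest falls (left) and 25 largest rises (right) among called genes, with array 1 and array 2 as coloured points, their mean ± SE as a black diamond, and the estimate through ssy1T9 from the 4 other arrays as a bar, all in log2 of ssy1KO over wt. PUT1 stands at 4.09 and 4.08, BAP3 at -3.06 and -3.35, and CHA1, TAT1 and URA1 show array points farther apart than most.

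Sulphate assimilation, the path that reduces sulphate to sulphide and fixes it into homocysteine, was higher in 9 of 12 measured genes with none lower, and its median was 1.36. MET14, for adenylylsulphate kinase, read 2.50 and 2.39, or 5.45-fold higher (adjusted p = 2.82e-10). MET16, for the next reductase, read 2.03 and 1.61, and the sulphite reductase subunit genes MET5 and MET10 had means of 2.14 and 2.12. MET17, for the enzyme that makes homocysteine from sulphide, read 2.20 and 2.19, or 4.58-fold higher. MET3, for ATP sulphurylase at the head of the path, was the member whose arrays disagreed: 2.30 on array 1 and -0.50 on array 2, a mean of 0.90 that was not called (adjusted p = 0.0683). Its spot gave 2.43 and 2.38 for ssy1T9 over wt and -0.10 and -0.13 for ssy1KO over ssy1T9, so array 2 was the reading that stood apart among 6. What set that spot apart was not tested.

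The methionine cycle and cysteine synthesis split, with 7 of 15 genes higher and 1 lower and a median of 0.15. MET2, for homoserine acetyltransferase, read 2.06 and 2.04, and MET6, for methionine synthase, 2.13 and 1.95, each more than 4-fold higher. STR3, for cystathionine beta-lyase, read 1.24 and 1.41, and MET13, for a methylenetetrahydrofolate reductase, 1.26 and 0.89. The exception was CYS4, for cystathionine beta-synthase on the way from homocysteine to cysteine, which was lower at -0.69 and -1.25. IRC7, for an enzyme that releases sulphide from cysteine, was also lower at -1.18 and -1.21. Of the regulators, MET32 read 1.13 and 0.99 and MET30 0.39 and 0.38, both called higher, while MET31, a close relative of MET32, was lower at -0.23 and -0.67. The transcript of their partner, the activator gene MET4, read -0.02 and 0.32 and was not called. By the estimate through ssy1T9 from the 4 other arrays, MET32 was at 1.04 and called. MET30 at 0.15 and MET31 at -0.25 were not called by it. From the 2 ssy1KO and wt arrays alone, 1 of the 6 measured regulators was called higher and 0 lower. CHO2, for a methyltransferase of phosphatidylcholine synthesis that uses S-adenosylmethionine, read -1.37 and -1.59, or 2.79-fold lower.

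Leucine genes led the branched-chain amino acid group, in which 6 of 13 were higher and none lower. LEU2, for isopropylmalate dehydrogenase, read 2.30 and 2.51, or 5.30-fold higher, and LEU1, for isopropylmalate isomerase, 2.03 and 2.0, or 4.04-fold. BAT1, for the mitochondrial branched-chain aminotransferase, read 1.49 and 1.23. ILV3 and ILV6, for a shared dehydratase and a regulatory subunit, were higher by 0.60 and 0.42. The group's median was 0.11, since 7 members were not called, so the large rises were those of LEU1, LEU2 and BAT1.

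Smaller rises ran through other amino acid pathways. Of 7 histidine genes 5 were higher, with HIS4 at 0.98 and 0.80 and HIS3 at 0.55 and 1.11. Of 8 arginine genes 5 were higher with a median of 0.65. ARG4, for argininosuccinate lyase, read 1.53 and 1.28, the carbamoyl phosphate synthase gene CPA1 0.71 and 0.82, and the mitochondrial ornithine carrier gene ORT1 0.63 and 0.90. Of 9 lysine genes 5 were higher, LYS1 the most at 0.66 and 0.97, and 1 was lower, the homocitrate synthase gene LYS20 at -0.43 and -0.80, while without array 2 the counts were 2 and 1. In the aspartate and threonine branch 3 of 7 were higher, with the aspartate kinase gene HOM3 at 0.99 and 0.99 and HOM2, the next gene of the branch, at 0.71 and 1.08. Aromatic amino acid synthesis had 7 of 13 genes higher, with the multifunctional gene ARO1 at 0.52 and 0.97, but 2 were called without array 2 and 4 without array 1. None of these 5 pathways held more than 1 gene that was lower. From the 2 ssy1KO and wt arrays alone, fewer rises were called. These were 1 histidine, 3 arginine, 1 lysine, 2 aspartate and threonine and 0 aromatic genes.

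The general control of amino acid synthesis, which runs through translation of the activator Gcn4, showed no call in 6 genes. GCN4 itself read -0.04 and -0.20, the kinase gene GCN2 0.10 and 0.26, and PCL5, for the cyclin that targets Gcn4 for breakdown, 0.08 and -0.24. Their medians were 0.06 on array 1 and -0.21 on array 2. Transcript levels do not report the translation of GCN4. The Ehrlich pathway turns amino acids into fusel alcohols. Of its 12 genes 2 were higher and 2 lower, against 10.1% and 6.36% of all genes. The decarboxylase gene ARO10 read -0.87 and -0.40 and the dehydrogenase gene ADH5 0.44 and 0.68, while the aminotransferase gene ARO9, at -0.32 and -0.43, was at 0.018 from the 4 other arrays. The aminoacyl-tRNA synthetase genes, some of which respond to Gcn4, had no call in 21, with means between -0.25 and 0.27.

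**Figure D3:**
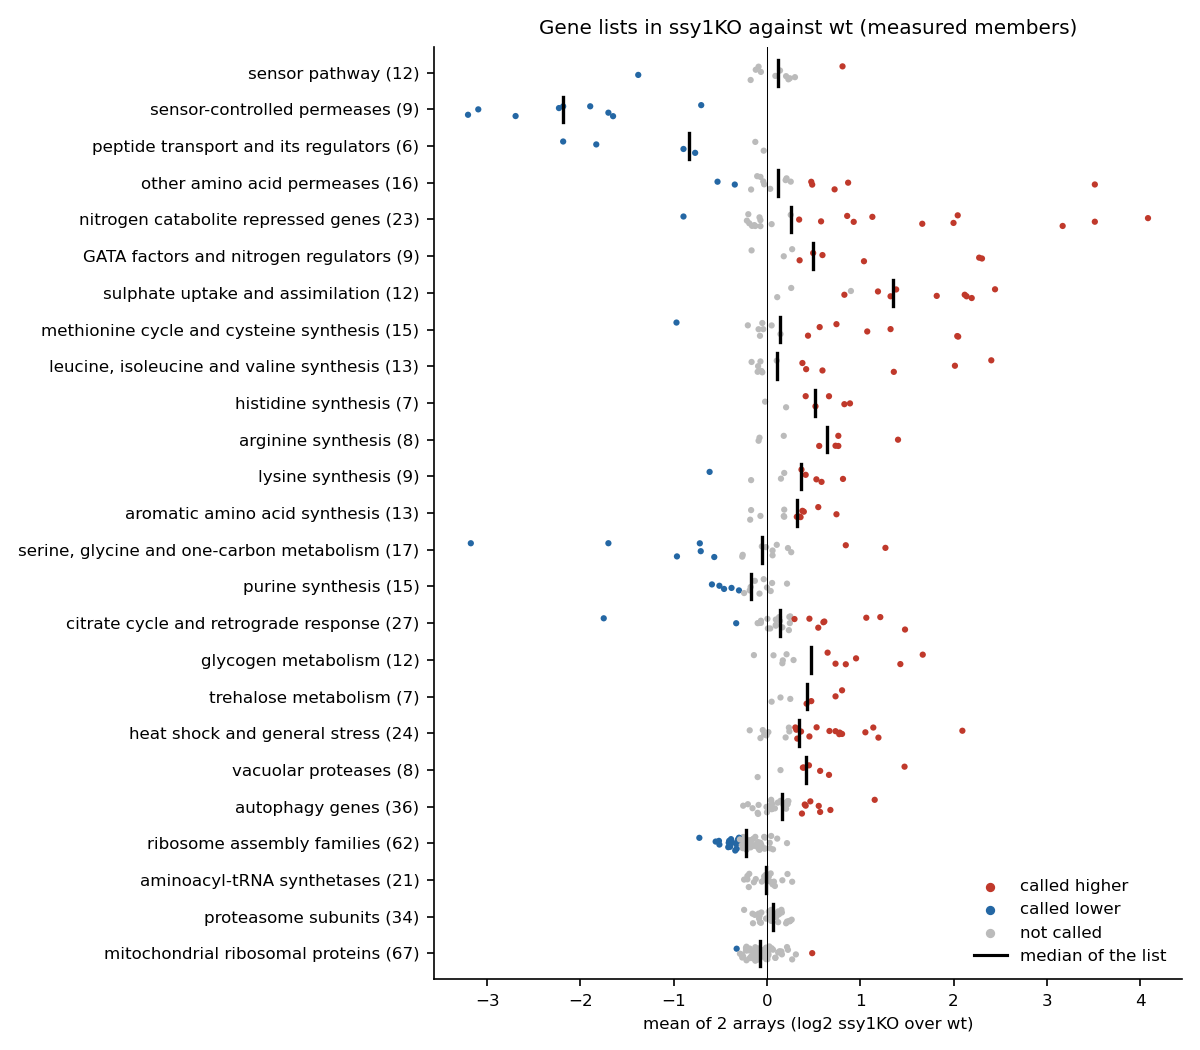
Each row is a gene group with the number of measured members in brackets, each point 1 gene at its mean log2 ratio of ssy1KO over wt from 2 arrays, coloured where called, and each black bar the group's median. All 9 sensor-controlled permease genes lie below -0.70, most sulphate genes lie above 0.80, and the proteasome and aminoacyl-tRNA synthetase genes show no called point.

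CHA1, for the deaminase that degrades serine and threonine, read -3.55 and -2.80, a mean of -3.18 (SE 0.109) or 9.03-fold lower, with an adjusted p of 1.19e-10. GCV1, for a subunit of the glycine cleavage complex, read -2.0 and -1.40, or 3.25-fold lower, and its partner GCV2 -0.87 and -1.06. In the group of serine, glycine and one-carbon genes 6 of 17 were lower, 2 higher and 9 not called, with a median of -0.06. The rises were SER33 at 0.96 and 0.73 and SER3 at 0.64 and 1.90, which encode similar dehydrogenases for the first step of serine synthesis. SER3 was the single gene of the 78 that lost its call under some of the other settings, and its arrays lay 1.26 apart on the log2 scale. Probe sequences were not given in the sources used here, so signal shared between such near relatives, as also in ribosomal protein, hexose transporter and TDH pairs, cannot be told apart.

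In pyrimidine synthesis and uptake 5 of 16 were lower and 1 higher. URA1, for dihydroorotate dehydrogenase, read -1.75 and -1.11, or 2.69-fold lower, URA4, for dihydroorotase, -0.62 and -0.90, and the CTP synthase gene URA7 -0.40 and -0.53. The exception was URA3, described below. Of 15 purine genes 5 were lower and none higher, with a median of -0.18, or -0.06 without centring. From the 2 ssy1KO and wt arrays alone 0 were lower, and without the dye term or against a 1.2-fold change 1. A fit to the 4 arrays with ssy1T9 alone gave 4 lower and 1 higher. ADE1 read -0.44 and -0.74, ADE4, for the first step of the path, -0.31 and -0.71, and GUA1 -0.47 and -0.45. The purine count was 3 without array 1, and without array 2 it was 2 lower and 1 higher.

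Of 12 glycogen genes 6 were higher, none lower and 6 not called, with a median of 0.47, and the same number was called without either array. GSY1, for a glycogen synthase, read 1.81 and 1.53, or 3.18-fold higher, PGM2, for the main phosphoglucomutase, 1.33 and 1.53, the glycogen phosphorylase gene GPH1 0.80 and 1.11, and the branching enzyme gene GLC3 0.82 and 0.87. Both synthesis and breakdown genes of glycogen were thus among the called. Of 7 trehalose genes 4 were higher and 3 not called, among the higher the synthase genes TPS1 at 0.62 and 0.85 and TSL1 at 0.66 and 0.95 and the neutral trehalase gene NTH1 at 0.43 and 0.52. Without array 2, 2 trehalose genes were called.

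Of 24 heat shock and general stress genes 15 were higher and none lower, with a median of 0.35, and 10 were called without array 1. RGI1, a gene induced in respiratory growth, read 2.24 and 1.95, or 4.27-fold higher. DDR2 read 1.27 and 1.12, and the small heat shock protein genes HSP42 and HSP26 1.26 and 1.02, and 0.92 and 1.19. Among 19 redox defence genes 4 were higher by 0.29 to 0.49, among them AHP1 and TRX2, with 1 called without array 2. YHB1, for the flavohaemoglobin that detoxifies nitric oxide, was lower at -0.89 and -1.13, and OYE3, for an NADPH oxidoreductase, at -1.23 and -1.39. Of 11 endoplasmic reticulum folding genes 2 were higher and 1 lower, against 10.1% and 6.36% of all genes, with a median of 0. KAR2 and EUG1 were higher by 0.36 and 0.48, and HAC1 was lower at -0.83 and -0.19. From the 2 ssy1KO and wt arrays alone, 0 folding genes were called.

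Genes of the vacuole were higher in part. Of 8 vacuolar protease genes and inhibitors 6 were higher and none lower, but without array 1 the count was 3. APE1, for an aminopeptidase delivered to the vacuole, read 1.72 and 1.23, or 2.78-fold higher, and the protease gene PRB1 0.76 and 0.57. Of 36 autophagy genes 8 were higher and none lower, with a median of 0.16. From the 2 ssy1KO and wt arrays alone, 1 autophagy and 1 vacuolar protease gene were called higher. ATG41 read 1.19 and 1.12, ATG8, for the ubiquitin-like protein of the autophagosome, 0.60 and 0.76, and ATG19, for the receptor that carries Ape1, 0.39 and 0.72. Without array 2, 3 of the autophagy genes were called. No proteasome gene of 34 was called, and their means lay between -0.25 and 0.27.

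In the citrate cycle and its retrograde control, which supplies 2-oxoglutarate for glutamate, 8 of 27 genes were higher and 2 lower. PYC1, for pyruvate carboxylase, read 1.37 and 1.59, or 2.79-fold higher, CIT2, for the peroxisomal citrate synthase, 1.12 and 1.31, DLD3 1.0 and 1.13, and the aconitase gene ACO1 0.61 and 0.62. MDH2, for the cytosolic malate dehydrogenase, went the other way at -1.87 and -1.63, or 3.36-fold lower. The gluconeogenesis and glyoxylate genes held 1 call in 8, ICL1 at 0.55 and 0.23, and FBP1 read -0.03 and -0.18. Of 58 respiratory chain and ATP synthase genes 3 were higher and 3 lower, against 10.1% and 6.36% of all genes. These counts were 5 and 1 without array 1, 1 and 1 without array 2, and 6 and 3 without either array of ssy1KO and ssy1T9. COX5B, for the cytochrome oxidase subunit isoform used at low oxygen, read 0.40 and 0.90, NDI1, for the internal NADH dehydrogenase, 0.34 and 0.61, and NDE1, for an external one, -0.55 and -0.81.

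At the entry of glycolysis GLK1, for glucokinase, read 1.27 and 1.48, or 2.59-fold higher, and HXK1, for a hexokinase, 0.93 and 0.71. The rest of the 17 glycolytic genes read differently by array, with a median of -0.14 on array 1 and 0.41 on array 2, and 8 of them had a called dye effect. The group's 3 rises were 5 without array 1 or without either array of ssy1KO and ssy1T9. FBA1, for aldolase, read -0.46 and 1.49, and PGK1 -0.27 and 1.0. Neither was called. Of 17 hexose transport and sensing genes 3 were higher and 1 lower, all by under 0.40, against 10.1% and 6.36% of all genes. The called genes included HXT4 at 0.40 and 0.24 and the sensor gene RGT2 at 0.42 and 0.34, which was at -0.003 from the 4 other arrays. Without array 2 none of these hexose genes was called.

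Genes of metal, phosphate and vitamin supply held a few large falls. PHO3, for an acid phosphatase that takes thiamine phosphates, read -1.99 and -1.68, or 3.57-fold lower, while the other 12 thiamine genes were not called. SIT1, a siderophore transporter gene, read -1.05 and -1.03, FIT2, for a cell wall mannoprotein of siderophore uptake, -0.73 and -0.67, and FRE7, for a ferric reductase homologue, -1.07 and -1.28. Of 19 iron uptake genes 4 were lower and 1 higher, and without array 2 2 were lower. Of 17 phosphate genes 2 were higher and 1 lower, against 10.1% and 6.36% of all genes. In this group PHO89, a sodium-coupled phosphate transporter gene, was lower at -0.71 and -0.70, whereas SPL2 and PHO87 were higher by 0.48 and 0.37. From the 2 ssy1KO and wt arrays alone, 0 phosphate genes were higher and 1 was lower. SED1, for a major cell wall protein, read -1.52 and -1.64, or 2.99-fold lower. Of 21 cell wall genes 3 were lower and 1 higher, against 6.36% and 10.1% of all genes.

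Of 24 ergosterol genes 4 were higher and 1 lower, against 10.1% and 6.36% of all genes. The highest was ERG28 at 0.74 and 0.29, and 1 ergosterol gene was called without array 2. Of 9 fatty acid genes 3 were lower, with FAA4 at -0.48 and -0.74 and the desaturase gene OLE1 at -0.55 and -0.54, and FAA1 was higher at 0.17 and 0.59. Cell cycle genes had 2 calls in 20, against 16.5% of all genes. These were the G1 cyclin gene CLN2 at 0.08 and 0.63 and the replication licensing gene CDC6 at -0.35 and -0.62.

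Ribosomal protein genes read differently on the 2 arrays. Of 135 cytosolic ribosomal protein genes, 39 were lower and none higher, and their median was -0.26. On array 1 the median was -0.52, with 134 of them below 0, and on array 2 it was -0.01, with 69 below 0. The 60 members with a called dye effect were 60 of the 324 such genes on the whole array, 5.67% of all genes. RPS4B read -1.42 and 0.08, RPP2A -1.07 and -0.18, RPL38 -0.80 and -0.20, and RPS30A -1.56 and 0.65. Without array 1, 13 were lower and 2 higher, and without array 2, 48 were lower. The route through ssy1T9, which uses 4 other arrays, had a median of -0.43. Without centring, the median of these genes was -0.14 where that of all genes was 0.12, and 8 were lower. With scaled columns 7 were lower, without the dye term 1, and from the 2 arrays alone or against a 1.2-fold change 0, whereas 101 were lower in the fit with 1 coefficient per strain and 78 from the 4 other arrays. The part of dye in the fall was not tested further.

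Of 62 ribosome assembly genes 18 were lower with none higher, and 5 had a called dye effect. Their medians were -0.18 on array 1 and -0.26 on array 2, and 47 had one sign on both arrays. RPF2, for an assembly factor of the large subunit, read -0.52 and -0.93, UTP23, for the small subunit, -0.47 and -0.63, RRP5 -0.33 and -0.69, and NOP58 -0.18 and -0.65. Without array 2, 5 were lower and 1 higher, and without array 1, 13 were lower. Without centring the median was -0.10 and 4 were lower with 1 higher. With scaled columns or without the dye term 4 were lower, against a 1.2-fold change 1, and from the 2 arrays alone 0. In the fit with 1 coefficient per strain 31 were lower, and from the 4 other arrays 13. The 67 mitochondrial ribosomal protein genes gave 1 rise and 1 fall and a median of -0.08, which was 0.04 without centring. That the groups differ was not tested.

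**Figure D4:**
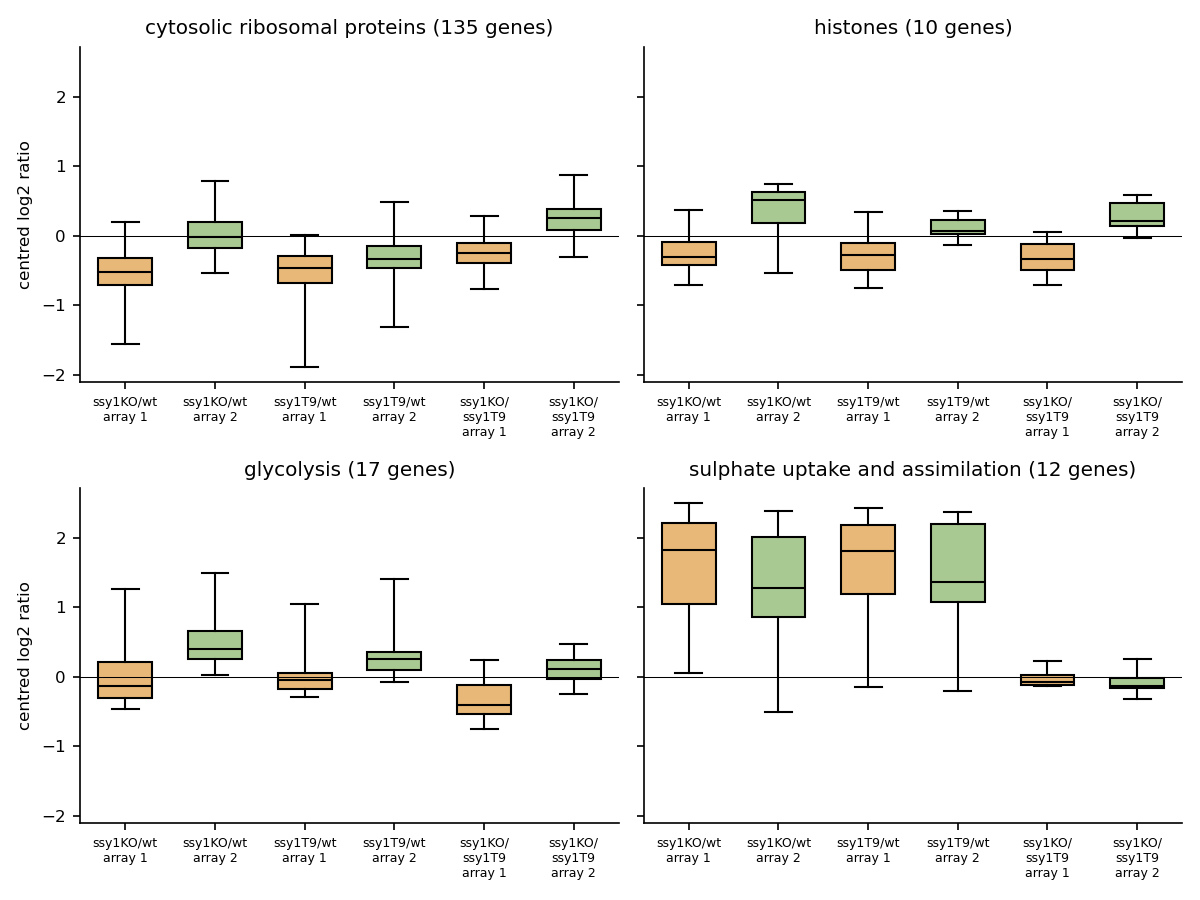
Boxes show the quartiles and median, and whiskers the full range, of the centred log2 ratio over the genes of 4 groups on each of 6 arrays, named by their pair of strains, with array 1 of each pair in orange and array 2 in green. Ribosomal protein, histone and glycolysis genes shift between arrays of a pair (medians of -0.52 and -0.01, -0.31 and 0.52, and -0.14 and 0.41 in ssy1KO over wt), while sulphate genes are high on all 4 arrays with wt.

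Genes next to SSY1 on the chromosome were read for effects of the deletion on its surroundings, with neighbours taken from the R64 annotation. HOM2, 2 genes away, was higher, as given above with its pathway. SAC3, between it and SSY1, read 0.10 and 0.35 and was not called. ACL4 on the other side read -0.33 and -0.40, just past the threshold (adjusted p = 0.0417), and NBP2 beyond it 0.20 and -0.28. In ssy1T9 over wt the means were 0.79 for HOM2 and -0.36 for ACL4. HOM2 read 0.80 and 0.785 there, but ACL4 read -0.03 and -0.685, so its mean rests mainly on 1 array. At neither of these 2 genes did ssy1KO differ from ssy1T9 in a called way.

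URA3, for orotidine phosphate decarboxylase and widely used as a selectable marker, read 2.14 and 2.18, a mean of 2.16 (SE 0.0905) or 4.47-fold higher, with an adjusted p of 4.96e-10. It read 2.17 and 2.05 in ssy1KO over ssy1T9 but only -0.12 and -0.06 in ssy1T9 over wt. All 4 arrays that hold ssy1KO thus gave about 2, and the others about 0. TIM9, its neighbour, for a chaperone of the mitochondrial intermembrane space, read 0.54 and 0.82, and GEA2 on the other side 0.25 and 0.43, both called. YEL023C beyond GEA2 read 0.13 and 0.21 and PXP1 beyond TIM9 -0.28 and 0.23, neither called. In a list of 8 genes often deleted or used as markers in laboratory strains, 6 were higher with a median of 0.85, namely LEU2, MET17, URA3, CAN1, HIS3 and LYS2. As 5 of them also belong to the amino acid groups above, the list's count is not a separate result.

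Of 5711 genes, 7 or 0.123% differed between ssy1KO and ssy1T9, a comparison of strains that holds whatever else separates them beside the SSY1 allele. At an unadjusted p under 0.05 there were 365. SSY1 was lower in ssy1KO by 1.86 and 1.87 on those arrays. Of the other genes called there, URA3 and TIM9 were higher in ssy1KO. URA1 was lower at -1.53 and -1.26, or 2.63-fold, while it read -0.34 and -0.23 in ssy1T9 over wt and was not called. MDH2 was lower in ssy1KO at -1.15 and -1.11, or 2.19-fold, CHA1 at -0.90 and -0.75, and FUI1 at -0.49 and -0.72. MDH2, CHA1 and FUI1 were also lower in ssy1T9 than in wt, by -0.92, -2.62 and -1.10, so that ssy1KO had the lowest level of the 3 strains in each. None of the 9 sensor-controlled permease genes was called between the mutants, and the nearest was AGP1 at -0.47 and -0.40 (adjusted p = 0.203). A p that misses the threshold does not show equal levels. The count of 7 was 4 without the dye term or against a 1.2-fold change, and 30 from the 4 arrays with ssy1T9 alone.

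The difference between ssy1KO and wt can also be had through ssy1T9, as the sum of ssy1T9 over wt and ssy1KO over ssy1T9 from the 4 other arrays. Both estimates concern the same strains and may share RNA, so their likeness is no independent support. By this route 364 genes or 6.37% were called. PUT1 was 3.83 higher by it where the direct mean was 4.09, GAP1 3.33 against 3.52, and LEU2 2.31 against 2.41. BAP3 was -3.37 against -3.21, CHA1 -3.45 against -3.18, and SSY1 -1.58 against -1.38. The permease gene with the widest gap was DIP5, at -1.27 against -1.65. A test of the gap found no gene past the threshold, and the median gap was 0.133 in size. MET3 had the widest gap among the genes named here, 2.29 by the route against 0.90, and SSP120, at 0.02 against 0.78, had a call that rests on array 2 alone, where it read 1.61 after -0.06 on array 1.

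**Figure D5:**
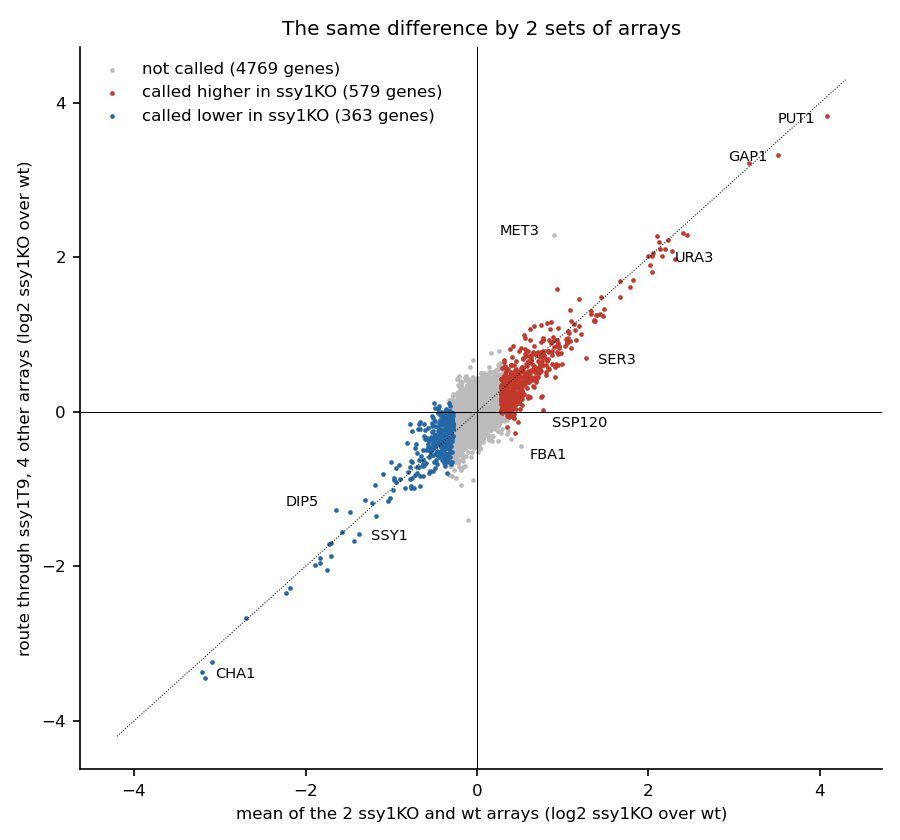
Each of 5711 genes is placed by the mean of the 2 ssy1KO and wt arrays (horizontal) and by the estimate through ssy1T9 from the 4 other arrays (vertical), both in log2 of ssy1KO over wt, with the dotted line marking equal values. PUT1 (4.09 and 3.83) and CHA1 (-3.18 and -3.45) lie near the line, and MET3 (0.90 and 2.29) and FBA1 (0.52 and -0.44) lie away from it.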

How the data were processed

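The deposited table holds 1 log2 ratio per spot on each of 6 two-colour arrays; base, direction, scanner, background correction and normalization were not given in the sources used here, and the labels give no cultures. It has 7744 spots and 0 missing values. The platform annotation gives 1 gene symbol for 6116 spots, none for 1628 and several for 0; 6111 symbols were matched to R64 names. Each column was centred on its median over named spots (-0.58 and -0.34 on arrays 1 and 2 of ssy1KO and wt), and spots of a gene were averaged, giving 5711 genes, 33 of them with more than 1 spot. limma 3.58.1 (R 4.3.3; lmFit, eBayes) fitted a dye intercept and 1 coefficient for each of 3 strain pairs, with 2 residual and 11.8 prior degrees of freedom. Tests are two-sided, Benjamini-Hochberg adjusted over all genes. The fit was tested on simulated data. Members, gene lists (51, with no set test) and rules were chosen with earlier results of these data known. Genes named are SSY1, its neighbours and those of URA3, all sensor pathway and permease genes, the 25 largest rises and falls, up to 5 genes of each other list by size, all called between the mutants, and the 10 with arrays farthest apart. Signal over background was not analysed here, so the number of arrays sets the precision. Alternatives covered centring, scaling, dye term, arrays used, prior, spots, a 1.2-fold test and leaving out each array.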

Additional observations from a re-analysis of the deposited data

Results flagged for a closer look

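The strains ssy1KO and ssy1T9 differed at 7 genes by limma's test, each past an adjusted p of 0.05. Whether the SSY1 allele or another difference between the strains lies behind this cannot be told apart. The log2 difference was -1.865 for SSY1, 2.11 for URA3, -1.395 for URA1, -1.13 for MDH2, -0.825 for CHA1, 0.74 for TIM9 and -0.605 for FUI1. URA3 and TIM9 are neighbours on the chromosome, and URA1, URA3 and FUI1 all serve pyrimidine supply. Each of the 7 genes had one sign on both arrays of that pair. Their number depended on the setting, with 4 called without the dye term and 30 from the 4 arrays with ssy1T9 alone. No cause was tested.

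Among 1628 spots with no gene name in the annotation used here, 49 (3.01%) were called between ssy1KO and wt, 27 higher and 22 lower, when tested outside the main comparison. Among named spots the share was 12.07% in that fit. The largest of these spots read 2.29 on array 1 and 2.60 on array 2, and 2.71 by the route through ssy1T9. They are unnamed here and were not assigned to any gene.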

How the results depend on the processing

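Of the 78 genes at least 2-fold apart, 77 (51 higher, 26 lower) were called under all 18 alternatives; SER3 lost its call with scaled columns, no dye term or a robust prior. Of 195 called genes among the 282 named, 87 kept call and direction under all alternatives. Counts moved more. Calls were 379 with scaled columns (244 higher, 135 lower), 347 without the dye term (230 and 117), 152 from the 2 ssy1KO and wt arrays alone (108 and 44) and 229 against a 1.2-fold change (159 and 70). Without centring 973 were higher and 135 lower, or 87.8% higher against 61.5%, with all genes shifted by 0.12. A fit to the 4 arrays with ssy1T9 alone, with error estimated from them, gave 357 higher and 319 lower. Lower calls were 624 in the fit with 1 coefficient per strain and 609 with averaged pairs. Leaving out 1 array gave 283 to 1056 calls, 191 to 643 higher and 92 to 413 lower, and 1 to 30 between ssy1KO and ssy1T9: 417 calls without array 2 of ssy1KO and wt, and 283 without either array of ssy1T9 and wt. Between ssy1KO and ssy1T9 counts were 11 without centring and with scaled columns, 14 with the median of all spots, 18 with 1 coefficient per strain, 4 without the dye term and against 1.2-fold, 30 from the 4 arrays and 24 with averaged pairs; these were added after seeing the data. From the 4 arrays with ssy1T9, ARO9 was 0.018, RGT2 -0.003, FBA1 -0.443 and ERG20 -0.278, each with the sign opposite to its direct mean. With an SE of 0.140 each, ARO9 and RGT2 lay near 0, and of these genes only FBA1 was called. MET3 lay between -0.479 (without array 1) and 2.279 (without array 2), and SSP120 between -0.104 (without array 2) and 1.654 (without array 1). Other causes of these shifts were not tested. List counts without each array were also added after seeing the data. Each ratio already pairs 2 strains within 1 array. No further pairing was used, because the array numbers mark dye orientation and pair no samples across groups. The number of arrays limits precision, and signal over background is not used here.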

Other observations

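None of 6 genes specific to a cells was called, with the receptor gene STE2 at -0.12 and -0.16 and the pheromone gene MFA1 at 0.01 and 0.25. Of 4 genes specific to alpha cells, MF(ALPHA)2 read -0.68 and -0.41 and SAG1 -0.98 and -0.03, both called lower, and MF(ALPHA)1, at -1.30 and 0.50, was not. The medians of these 4 genes were -0.83 on array 1 and 0.18 on array 2, and 2 of them had a called dye effect. Of 11 pheromone response genes 1 was lower, AGA1 at -0.58 and -0.12, and no sporulation gene of 10 was called. Histone genes gave array medians of -0.31 and 0.52, with HTZ1 higher and HHT1 lower among 10.

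For 12 genes the array holds 33 spots each, which shows the spread within an array. The SD over these spots had a median of 0.195 on array 1 and 0.199 on array 2. For counts of spots, each spot was first averaged over both arrays. HSP104, for a chaperone that dissolves aggregates, was 0.53 higher with 32 of its 33 spots above 0, and SSA4 0.30 higher with 31 of 33. The ribosomal protein gene RPS6B was below 0 at all 33 spots so averaged, and was called (adjusted p = 0.0387 in the limma fit). Its means were -0.48 on array 1 and -0.11 on array 2, where the SD over spots was 0.20. By the route through ssy1T9 it was at -0.06. The actin gene ACT1 and the gamma-tubulin gene TUB4 had means of -0.03 and 0.00 and were not called. TDH1 read -0.14 and 0.41 as means over its spots, so its arrays differed by more than the spread over spots.

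TOF2 and GPN3 were called higher although their arrays have opposite signs. TOF2 read -0.56 and 1.61 and GPN3 -0.59 and 1.48, and both had a called dye effect (adjusted p = 1.8e-05 in the limma fit). Altogether 32 called genes had opposite signs or a 0 on 1 array.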
